A study of Mus musculus with 12 samples.

Results

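Intergenic sites that were open in mouse embryonic stem cells (mESCs) and not in mouse embryonic fibroblasts (MEFs) are described here. They were chosen by a rule on position and on the authors' peak lists. A site is a peak of the BGI peak set that overlapped no gene body and lay more than 1 kb and at most 100 kb from the nearest transcription start site (TSS; GENCODE M21, GRCm38). It also overlapped, by at least 1 bp, the reproducible mESC peaks of both sequencing platforms and no reproducible MEF peak of either platform. The rule found 9134 of the 91,354 peaks of the set, and 25,802 peaks met its positional part. Among those 25,802 peaks, 7659 were open only in MEFs by the mirror-image rule and 4677 were open in both cell types on both platforms. Every peak was 502 bp wide, so that levels can be compared between sites.

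The data are from Omni-ATAC-seq, in which a transposase cuts and tags accessible DNA. MEFs were sorted as THY1+ cells and mESCs as THY1-/SSEA1+/EPCAM+ cells, both of a C57/Bl6 background, and the labels name no treatment, age or mESC line. There were 3 libraries from biological replicates for each cell type (MEF 1, 2 and 4; mESC 1, 3 and 5). Part of each library was read on an Illumina HiSeqX10, and the rest was converted to DNA nanoballs and read on a BGI DNBSEQ-G400, which gave 12 samples in 4 groups of 3. The reads counted in the peak set ranged from 20.1 to 21.8 M in MEF samples and from 15.9 to 17.1 M in mESC samples, and levels are given as CPM, the reads of a site per 1 M of these reads. The promoter peaks of the mESC markers Nanog, Esrrb, Zfp42, Dppa5a, Epcam and Tdgf1 and of the MEF markers Thy1, Col1a2, Twist1, Prrx1, Cd44 and Postn were each higher in every sample of their own cell type. Nanog stood at 20.3 to 27.8 CPM in mESCs and 0.137 to 1.59 CPM in MEFs, and Thy1 at 9.29 to 12.9 and 30.1 to 38.9 CPM. Of 4 genes of other cell types, Ptprc (leukocytes) had no promoter peak and Pecam1 (endothelium) overlapped between the cell types. The promoters of Sox17 (endoderm) and Pax6 (neural cells) were at 17.8 to 23.4 and 19.9 to 23.7 CPM in mESCs against 2.68 to 4.03 and 7.25 to 8.10 CPM in MEFs, and what part this has in any result below was not tested.

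Intergenic accessible sites away from a TSS are often enhancers, at which transcription factors bind DNA and act on promoters at a distance. In mESCs the state of pluripotency is held by a small group of factors. OCT4 (encoded by Pou5f1) and SOX2 bind side by side on a composite DNA element, and NANOG, ESRRB, NR5A2, KLF2, KLF4, KLF5 and TFCP2L1 share many of the same enhancers. STAT3 carries the signal of leukaemia inhibitory factor to them. Fibroblast enhancers are known instead for AP-1, TEAD and RUNX factors. CTCF binds many sites in most cell types and anchors chromatin loops, and REST represses neuronal genes outside neurons. Some enhancers of mESCs lie in copies of endogenous retroviruses, which are soft-masked in the reference genome together with other repeats.

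The sequences below show what the sites look like at the base level. The first set holds the 8 members closest to the OCT4-SOX2 element (a SOX element CATTGT, 1 free base and the octamer ATGCAAAT), ordered by mismatches and then by level in mESCs on BGI. Each run is 61 bases on the given strand of GRCm38, and capitals mark the 15 bases aligned to the element, the free base and any mismatched letter included. Sites are named by the nearest coding TSS, which can lie farther away than the 100 kb that the rule allows to a TSS of any gene type.
Near Trpc7, chr13:57362749-57362809, minus strand: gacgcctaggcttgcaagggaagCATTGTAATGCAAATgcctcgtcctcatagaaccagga
Near Six4, chr12:73086050-73086110, plus strand: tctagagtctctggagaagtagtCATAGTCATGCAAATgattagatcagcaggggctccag
Near Phc1, chr6:122342549-122342609, plus strand: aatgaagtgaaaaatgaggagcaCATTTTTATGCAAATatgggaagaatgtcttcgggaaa
Near Zfp64, chr2:168959543-168959603, minus strand: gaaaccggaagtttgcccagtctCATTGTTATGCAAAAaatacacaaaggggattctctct
Near Prr5, chr15:84622201-84622261, minus strand: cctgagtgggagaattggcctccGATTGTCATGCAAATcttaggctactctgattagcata
Near Tbl1xr1, chr3:21892363-21892423, minus strand: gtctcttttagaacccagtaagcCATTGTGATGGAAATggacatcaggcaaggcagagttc
Near Adgrb2, chr4:129966466-129966526, plus strand: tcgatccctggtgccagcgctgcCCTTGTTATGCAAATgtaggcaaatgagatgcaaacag
Near Tgfb2, chr1:186510707-186510767, plus strand: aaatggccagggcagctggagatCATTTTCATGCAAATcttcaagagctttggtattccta
The site 466,518 bp upstream of Trpc7 was the member with 0 mismatches, and the other 7 had 1. The site near Trpc7 stood at 15.8, 15.4 and 14.8 CPM in mESCs 1, 3 and 5 on BGI and at 16.7, 15 and 14.3 CPM on Illumina. In MEFs 1, 2 and 4 it stood at 0.739, 0.298 and 0.548 CPM on BGI and 0.458, 0.342 and 0.436 CPM on Illumina, so the cell types did not overlap. The highest of the 8 lay 27,174 bp downstream of Six4, a homeobox gene, at 29.6 to 40.2 CPM in the mESC samples and 0.366 to 1.09 CPM in the MEF samples. The site 1597 bp upstream of Phc1, which encodes a Polycomb protein, followed at 30.2 to 33.6 CPM and 0.0969 to 1.46 CPM. Each of the 8 was higher in every mESC sample than in any MEF sample, which the rule made likely.

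The second set holds, for 5 other elements, the member with the highest level in mESCs on BGI. Capitals mark the ESRRB or NR5A2 element TCAAGGTCA, the KLF element CCACACCC, the STAT element TTCCNGGAA, the CTCF core (1 mismatch here) and the REST site (3 mismatches here). In every share given for them, the CTCF core was a pattern of 12 bases with at most 1 mismatch and the REST site one of 20 bases with at most 4, and both hold ambiguous letters and are given by name.
ESRRB or NR5A2 element, near Rybp, chr6:100378262-100378322, plus strand: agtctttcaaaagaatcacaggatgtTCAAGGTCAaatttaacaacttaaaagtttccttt
KLF element, near Crlf2, chr5:109550856-109550916, plus strand: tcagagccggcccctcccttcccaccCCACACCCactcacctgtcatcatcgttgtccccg
STAT element, near AU018091, chr7:3201450-3201510, plus strand: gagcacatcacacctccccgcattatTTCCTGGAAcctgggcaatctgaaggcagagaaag
CTCF core, near Dennd2a, chr6:39446492-39446552, plus strand: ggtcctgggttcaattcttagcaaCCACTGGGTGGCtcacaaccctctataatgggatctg
REST site, near Tunar, chr12:105322273-105322333, plus strand: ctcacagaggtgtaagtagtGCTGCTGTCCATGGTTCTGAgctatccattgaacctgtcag
The site with the ESRRB or NR5A2 element, 90,386 bp upstream of the Polycomb gene Rybp, stood at 34.1 to 46.3 CPM in mESCs and 0.504 to 1.15 CPM in MEFs. The site with the REST match stood at 39.7 to 48.0 CPM in mESCs and, at 2.93 to 5.23 CPM, had the highest MEF levels of these 13 sites. In the order printed, the marked letters of the second set lay 170.5, 165, 58.5, 171 and 127 bases from the peak centre. The CTCF and REST matches shown are thus farther from the centre than the median match given below. A match is a description of the letters and does not show that a factor was bound.

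The level of the sites in mESCs was near that of other distal sites, and their level in MEFs was low but not 0. The median member stood at 9.33, 9.05 and 9.44 CPM in mESCs 1, 3 and 5 on BGI and at 8.86, 8.43 and 8.80 CPM on Illumina. In MEFs 1, 2 and 4 it stood at 1.02, 1.09 and 1.05 CPM on BGI and 0.870, 0.976 and 0.920 CPM on Illumina. All 6 mESC medians lay far above all 6 MEF medians, which follows from the rule. No member had 0 reads in an mESC sample, and 33 to 86 members had 0 reads in a given MEF sample, where a count of 0 allows up to 3 reads. Since these are bulk samples, fewer cells with an open site and less opening per cell cannot be told apart. Intronic distal sites open only in mESCs had medians of 8.08 to 9.26 CPM in the mESC samples, and intergenic sites open in both cell types had medians of 9.60 to 11.3 CPM.

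**Figure D1:**
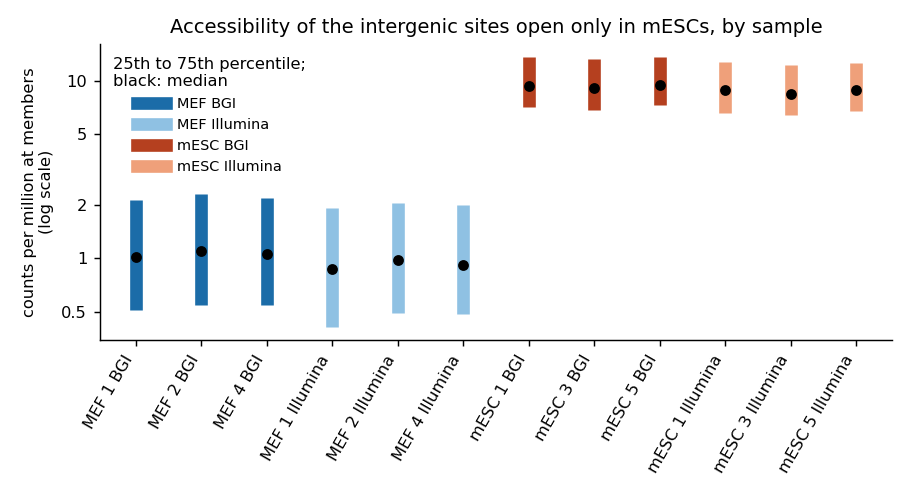
The CPM of the 9134 members in each of the 12 samples is shown on a log axis, with bars from the 25th to the 75th percentile and black points at the median. The medians lie at 8.43 to 9.44 CPM in mESC samples and 0.870 to 1.09 CPM in MEF samples.

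The contrast of the cell types was used by the rule and is given as a description only. On BGI the median log2 difference of mESCs minus MEFs was 3.20 over the members, with quartiles of 2.06 and 4.21 and a range of -0.56 to 10.1, and over all peaks it was -0.08. On Illumina it was 3.26, with quartiles of 2.08 and 4.31. A total of 8969 members (98.2%) were called higher in mESCs by edgeR on BGI, where 40.9% of all peaks were, and 8994 (98.5%) on Illumina, where 41.2% of all peaks were. Every mESC sample stood above every MEF sample at 8882 members (97.2%), and this was so at 39.5% of all peaks. Not all members were far apart. On BGI 664 members (7.27%) and on Illumina 610 (6.68%) had a fitted log2 difference under 1, 6939 (76.0%) and 6991 (76.5%) had one of at least 2, and 16 and 14 had one at or below 0. Being absent from a MEF list did not therefore mean being closed in MEFs. The clearest case among the named members lay 1484 bp upstream of Foxo3, a forkhead gene of the insulin pathway, at 11.2, 12.3 and 11.9 CPM in MEFs 1, 2 and 4 on BGI and 15, 11.8 and 13.3 CPM in mESCs 1, 3 and 5. On Illumina it stood at 18.2, 16.7 and 18.5 CPM in MEFs and 20.6, 16.5 and 18.9 CPM in mESCs, and the cell types overlapped on both platforms.

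The peaks called in each sample at a loose threshold (p 0.01) were not used by the rule directly, and they divide the members by how closed they were in MEFs. Of the members, 5279 (57.8%) held no called summit in any MEF sample, 2238 (24.5%) held one in 1 to 5 MEF samples and 1617 (17.7%) held one in all 6. In mESCs 9081 members (99.4%) held a summit in all 6 samples. The median MEF level on BGI was 0.607, 1.86 and 3.66 CPM in these 3 classes, and the median mESC level was 9.27, 9.31 and 8.89 CPM. The difference in MEFs follows from how the classes were cut, and in mESCs they hardly differed.

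The DNA of the classes differed as well. The OCT4-SOX2 element (at most 2 mismatches) was held by 3.39% of the members with no MEF summit, 1.39% of those with 1 to 5 and 1.06% of those with all 6. The octamer alone fell in the same order, at 7.03%, 5.46% and 3.93%, and the SOX element CCATTGT at 13.5%, 8.81% and 7.91%. The CTCF core went the other way, at 8.28%, 17.4% and 29.6%, and so did the REST site, at 0.928%, 3.31% and 3.68%. At least 50% of the sequence was soft-masked as repeats in 31.1%, 10.2% and 5.92% of the members. GC content also differed, with medians of 48.6%, 50.4% and 50.6%, and its part in these shares was not tested. The classes were cut from the MEF samples themselves, so the shares are given as a description with no test.

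**Figure D2:**
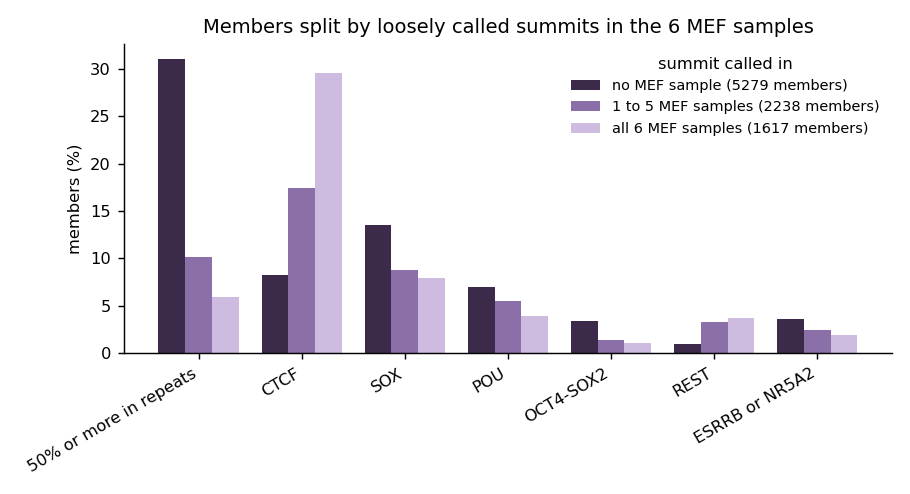
Bars give the share of members (%) that hold each feature, for members with a loosely called summit in no, in 1 to 5 and in all 6 MEF samples. The CTCF share is 8.28%, 17.4% and 29.6% in this order, and the share with at least 50% of the sequence in repeats is 31.1%, 10.2% and 5.92%.

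The letters of the pluripotency factors were compared with those of other sites of the same width. Sequence was read for 9119 members, and 15 members on an unplaced scaffold had none here. All motifs were searched on both strands over the whole peak. The octamer is part of the OCT4-SOX2 element and CATTGT is part of the SOX element, so these counts overlap. The shares carry 95% Wilson intervals for the error of counting alone, and no test was made between sets of sites. Median GC content was 49.4% in the members and in the intronic mESC-only sites. It was 46.2% in the intergenic MEF-only sites and 51.4% in the intergenic sites open in both cell types. The part of GC content in the shares was not tested. The OCT4-SOX2 element with at most 2 mismatches was held by 227 members, or 2.49% (2.19 to 2.83%), by 2.30% of intronic distal sites open only in mESCs, by 0.496% (0.362 to 0.680%) of intergenic sites open only in MEFs, by 0.472% of intergenic sites open in both cell types and by 0.905% of all peaks. The octamer ATGCAAAT stood in 6.10% of the members and 3.07% of the MEF-only sites, and the SOX element in 11.4% and 6.67%.

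Other elements of pluripotency factors showed a similar order or none. The ESRRB or NR5A2 element was in 3.02% of the members, 0.640% of the MEF-only sites and 1.42% of all peaks. The KLF element was in 9.78% of the members, 4.20% of the MEF-only sites and 7.04% of all peaks. The TFCP2L1 element (CCAG, 6 free bases, CCAG) was in 8.65%, 5.77% and 7.63%, and the STAT element in 2.26%, 2.78% and 2.09%. The share with the STAT element was thus not higher in the members than in the MEF-only sites. The most frequent element was the E-box CACCTG, which the repressors ZEB and SNAI bind. It was also the shortest pattern searched, at 6 bases, and the part of its length in this rank was not tested. It was in 43.0% of the members, 42.1% of the intronic mESC-only sites, 17.3% of the MEF-only sites and 31.9% of all peaks.

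The elements of fibroblast factors were less frequent in the members than in the MEF-only sites. The AP-1 element TGANTCA stood in 19.7% of the members, 48.1% of the MEF-only sites and 25.2% of all peaks. The TEAD element ACATTCC stood in 11.3%, 19.5% and 11.3%, and the RUNX element TGTGGTT in 9.65%, 16.3% and 10.9%. The full NFI palindrome (TTGGC, 5 free bases, GCCAA) was in 1 member and in 10 MEF-only sites, too few for an order. The CTCF core was in 14.3% of the members, 8.84% of the MEF-only sites and 44.3% of the sites open in both cell types. The REST site was in 182 members (2.0%, 1.73 to 2.30%), in 2.27% of the intronic mESC-only sites and in 13 MEF-only sites (0.170%, 0.0992 to 0.290%). For OCT4-SOX2, POU, SOX, KLF, ESRRB or NR5A2, E-box, CTCF, REST, AP-1 and TEAD elements the share in members was nearer to that in the intronic mESC-only sites than to that in the other 2 intergenic sets. For TFCP2L1, STAT and RUNX it was nearest to that in the sites open in both cell types.

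**Figure D3:**
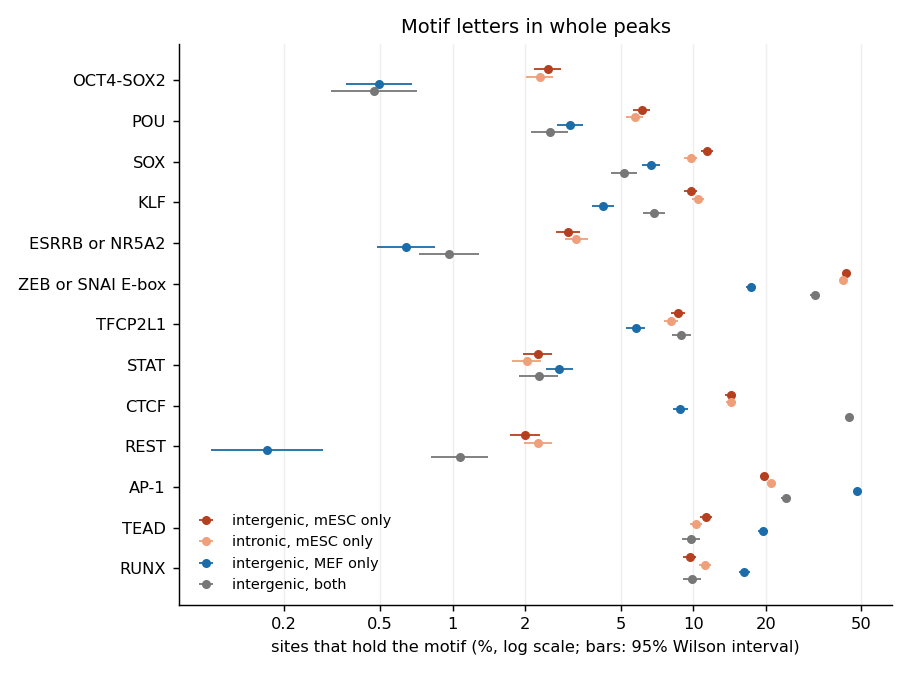
Points give the share of sites (%, log axis) that hold each motif in the 502-base peak, for the members, the intronic mESC-only sites, the intergenic MEF-only sites and the intergenic sites open in both cell types, with bars for the 95% Wilson interval. OCT4-SOX2 lies at 2.49% in members against 0.496% in MEF-only sites, and AP-1 at 19.7% against 48.1%.

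Some elements sat at the centre of the peak, which is the called summit, and others did not. The REST site was at a median of 22 bases from the centre and within 50 bases of it in 85.2% of the members that held one. The CTCF core was at a median of 29 bases, within 50 bases in 67.1%, and the OCT4-SOX2 element at 54.5 bases, within 50 bases in 45.8%. The RUNX element was at a median of 128.5 bases and within 50 bases in 20.2%. The level in mESCs went with some elements too. In the quartile of members with the lowest level in mESCs on BGI (3.56 to 7.16 CPM), 21.6% held the CTCF core, 8.90% the SOX element and 9.30% the TEAD element. In the quartile with the highest level (13.3 to 79.8 CPM) these shares were 9.08%, 14.2% and 14.7%. The OCT4-SOX2 element was in 2.11% (1.59 to 2.78%) of the lowest quartile and 3.16% (2.52 to 3.96%) of the highest, and these intervals overlap.

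Repeats made up far more of the members than of the sites open in MEFs. At least 50% of the peak was soft-masked in 1966 members, or 21.6% (20.7 to 22.4%), in 13.8% of the intronic mESC-only sites, in 1.87% of the intergenic MEF-only sites, in 1.91% of the intergenic sites open in both cell types and in 5.65% of all peaks. These 1966 members were as open in mESCs as the others, with a median of 9.31 CPM against 9.18 CPM on BGI. In MEFs they were lower, with a median of 0.536 CPM against 1.28 CPM on BGI and 0.480 CPM against 1.13 CPM on Illumina. The SOX element stood in 15.9% of them against 10.2% of the others, while the OCT4-SOX2 element stood in 1.17% against 2.85%, the STAT element in 1.07% against 2.59% and the REST site in 0.305% against 2.46%. The octamer was at 6.31% against 6.04%. The authors kept uniquely mapped reads only, so a repeat copy that cannot be told from others would have lost reads, and the size of that loss was not tested.

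Copies of the same sequence were found among the members. Of the members with sequence, 2717 (29.8%) shared a run of 31 bases with another member. Within the intronic mESC-only sites 19.0% did so, within the MEF-only sites 2.86% and within the sites open in both 6.36%, in sets of unequal size. When members sharing at least 50 such runs were joined, 721 members (7.91%) fell into 111 families, and 15 families held at least 10 members and 433 members in all. The largest family of the members held 117 sites, that of the intronic mESC-only sites 35, that of the sites open in both 4 and that of the MEF-only sites 2. The families were defined after values of these data had been seen.

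The runs of 31 bases most shared within the 4 largest families are printed, since they are the sequences that recur. Capitals mark exact letters of the octamer, the SOX element or the E-box on either strand, and the position is that of the member with the highest level.
Family 1, chr10:3172963-3172993, minus strand: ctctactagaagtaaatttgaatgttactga
Family 2, chr14:14309418-14309448, plus strand: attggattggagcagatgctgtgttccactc
Family 3, chr4:4049018-4049048, plus strand: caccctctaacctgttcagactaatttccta
Family 4, chr11:117857917-117857947, minus strand: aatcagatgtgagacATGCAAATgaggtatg
Family 1 had 117 members on 20 chromosomes, of which 35 held this run. Its members were at 5.29 to 40.3 CPM in mESCs on BGI, with a median of 15 CPM, and at a median of 0.393 CPM in MEFs. The median over all members was 9.21 CPM in the same measure, so this family was among the more open sites, and 75 of its members held the SOX element elsewhere in the peak. Family 2 had 66 members (48 with the run) with a median of 11.8 CPM, and family 3 had 41 members (30 with the run) with a median of 7.86 CPM. All 41 members of family 3 held the E-box. Family 4 had 34 members (24 with the run) with a median of 8.45 CPM, and 32 of them held the octamer, which lies inside the shared run. Over all peaks of the set, the 4 runs stood in 64, 79, 63 and 59 peaks, in none of which the peak was open only in MEFs or in both cell types. This did not hold for the next family, of 25 members, whose most shared run stood in 276 peaks, 13 of them MEF-only and 44 open in both.

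**Figure D4:**
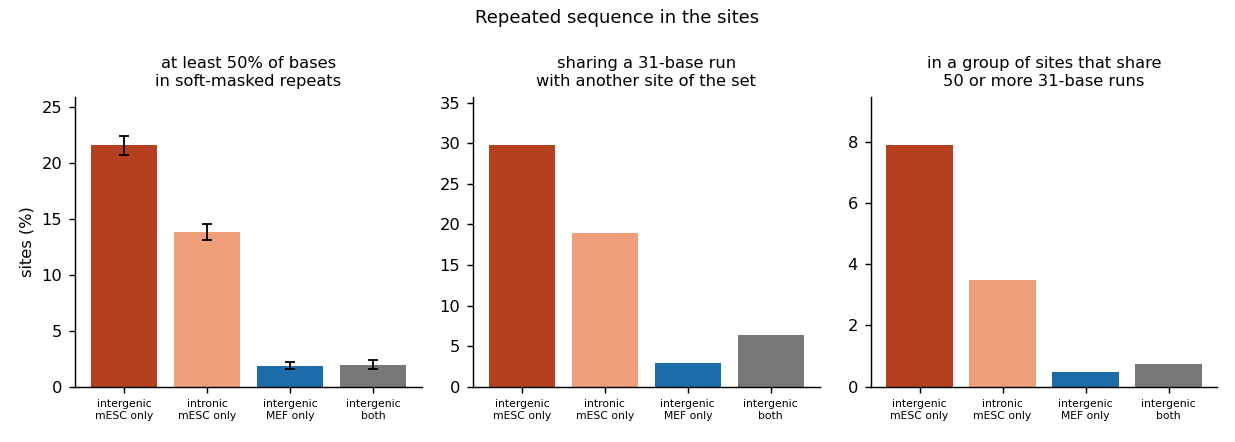
Bars compare the members with intronic mESC-only sites, intergenic MEF-only sites and intergenic sites open in both cell types, in the share (%) with at least 50% of the peak in repeats (error bars: 95% Wilson interval), the share (%) that holds a 31-base run of another site of its set and the share (%) in a family. Members stand at 21.6%, 29.8% and 7.91%, and MEF-only sites at 1.87%, 2.86% and 0.470%.

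The sites lay mostly within 25 kb of a TSS. The median distance from the nearer edge was 10,947 bp, against 17,185 bp for the MEF-only sites and 9277 bp for the sites open in both. In bins of distance, 25.1% lay at 1 to 5 kb, 21.7% at 5 to 10 kb, 30.5% at 10 to 25 kb, 15.1% at 25 to 50 kb and 7.55% at 50 to 100 kb. The OCT4-SOX2 element was in 1.83%, 2.02%, 2.30%, 4.30% and 3.20% of the members in these bins, and the median mESC level on BGI changed little, from 9.41 CPM in the nearest bin to 8.96 CPM in the farthest. The nearest TSS was that of a coding gene for 4324 members (47.3%), of a processed pseudogene for 1672 and of a lincRNA for 1499. The median distance to the nearest coding TSS was 21,439.5 bp. At the near limit of the rule, the members just inside lay at 1003 bp (near Mib2, 21.1 CPM in mESCs on BGI), 1007 bp and 1011 bp, and the peaks just outside at 989, 994 and 995 bp. At the far limit the members inside lay at 98,813 bp (near Rnd3, 19.4 CPM), 99,103 bp and 99,645 bp, and those outside at 100,161 bp, 100,243 bp (near Cnr1, 29.1 CPM) and 100,364 bp.

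Most members had a nearest coding gene whose promoter was open in both cell types. This was so for 6727 members (73.6%), for 72.7% of the MEF-only sites, for 74.9% of the sites open in both and for 82.8% of the intronic mESC-only sites. The promoter was open only in mESCs for 604 members, or 6.61% (6.12 to 7.14%), and only in MEFs for 178, or 1.95% (1.68 to 2.25%). These last 2 shares were 3.43% (3.05 to 3.87%) and 4.74% (4.29 to 5.24%) for MEF-only sites, 5.39% (4.78 to 6.07%) and 2.82% (2.39 to 3.34%) for sites open in both, and 4.86% (4.44 to 5.31%) and 1.96% (1.70 to 2.26%) for intronic mESC-only sites. No promoter peak was found for 14.4% of the members. A total of 4956 coding genes were nearest to at least 1 member, 278 to at least 5 and 26 to at least 10. The genes with the most members were Rpl38 (a ribosomal protein gene) with 20, Hs6st1 (a heparan sulphate sulphotransferase) with 19 and Zfp281 (a zinc finger factor of stem cells) with 18.

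Members lay near other members. A total of 4202 members (46.0%) were within 12.5 kb of another, against 38.4% of the MEF-only sites and 34.9% of the sites open in both, in sets of unequal size, where a larger set has more neighbours by number alone. They formed 1561 runs, of which 111 held at least 5 sites. The longest runs held 14 sites each, against 13 for the MEF-only sites and 19 for the sites open in both. They lay near Ptma on chromosome 1 over 44.3 kb, near Tnfsfm13 and Polr2a on chromosome 11 over 26.7 kb, and on the unplaced scaffold JH584304.1 near AC149090.1 over 43.4 kb. Among runs of at least 10 sites, the highest summed level was that near AU018091 and Nlrp12 on chromosome 7, with 12 sites over 24.8 kb at 7.92 to 56.3 CPM. Of the runs of at least 5 sites, those near genes of the core and naive pluripotency list were 10 sites over 28.3 kb at Dppa5a and Ooep, genes of the early embryo and egg, 9 sites over 26.7 kb downstream of Sox2, 7 sites over 31.3 kb at Zfp281, 6 sites over 24.3 kb at Klf2 and 5 sites over 26.8 kb at Sall1.

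The genes of 5 lists were looked up as the nearest coding gene. Over all coding genes, 4956 were nearest to one of the 9134 members and 3800 to one of the 7659 intergenic MEF-only sites. The share of all coding genes that this makes was not computed, so the lists are given as counts only. Of 28 core and naive pluripotency genes, 24 were nearest to a member, with 115 members in all, and 10 were nearest to an intergenic MEF-only site, with 23 sites. Of 14 genes of the primed or formative state, 8 had a member (15 members) and 8 a MEF-only site (12 sites). Of 20 genes of stem cell signalling, 17 had a member (51 members) and 15 a MEF-only site (46 sites), among them Socs3, the feedback inhibitor of STAT3 signalling, with 6 members. Of 8 epithelial and sorting genes, 6 had a member (14 members, 6 of them near Epcam, whose protein was used to sort the mESCs) and 1 had a MEF-only site. Of 18 fibroblast genes the order was opposite, with 4 near a member (7 members) and 17 near a MEF-only site (107 sites). Nr0b1, Stat3, Lin28a and Trim28 were the pluripotency genes without a member.

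For each pluripotency gene the member with the highest mean on BGI in mESCs was taken. Next to Pou5f1 it lay 1785 bp upstream, at 31.8, 33.1 and 34.2 CPM in mESCs 1, 3 and 5 on BGI and 31.4, 31.2 and 32.4 CPM on Illumina. In MEFs 1, 2 and 4 it was at 1.2, 1.54 and 0.697 CPM on BGI and 0.779, 1.03 and 0.678 CPM on Illumina. These 6 mESC values were close, with a ratio of highest to lowest of 1.10. Next to Sox2 it lay 110,674 bp downstream, at 52.0, 53.9 and 46.2 CPM in mESCs on BGI, 47.0, 49.0 and 44.1 CPM on Illumina and 0.137 to 0.696 CPM in MEFs. Sox2 is known for a distant downstream control region in mESCs, and the 9 members nearest to it lay at 84,468 to 110,674 bp. The promoter of Sox2 itself was open in both cell types.

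The member downstream of Nanog (8110 bp) was lower, at 14.9, 17.1 and 13.4 CPM in mESCs on BGI, 12.8, 16.4 and 12.5 CPM on Illumina and 1.01 to 1.84 CPM in MEFs. Next to Klf4, one of the reprogramming factors, it lay 53,743 bp downstream, at 35.6, 39.2 and 32.4 CPM on BGI, 37.1, 38.7 and 37.8 CPM on Illumina and 0.249 to 1.16 CPM in MEFs. Next to Klf5 it lay 25,351 bp downstream, at 44.5 to 55.0 CPM in mESCs and 2.42 to 5.68 CPM in MEFs. Its mean MEF levels were the highest of these sites, at 4.78 CPM on BGI and 4.2 CPM on Illumina. In MEF 4 the site near Tbx3 was higher, at 5.03 and 4.31 CPM against 3.39 and 2.42 CPM. Across the 24 sites the level in mESCs therefore varied widely.

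The other sites spanned a wide range. The highest was near Nr5a2, an orphan nuclear receptor gene whose TSS was 362,875 bp away, at 56.4, 74.0 and 66.9 CPM in mESCs on BGI, 46.5, 56.9 and 52.0 CPM on Illumina and 1.01 to 1.99 CPM in MEFs. The TSS nearest to that site was that of the noncoding 1700006P03Rik, 2018 bp away, and which gene the site serves was not tested. Sites near Klf2 (2414 bp upstream, 40.1 to 48.0 CPM), Tbx3 (29,715 bp downstream, 42.8 to 48.5 CPM) and Tfcp2l1 (61,898 bp downstream, 36.7 to 51.3 CPM) were also high. The lowest mESC levels were near Tet2 (6.09 to 8.08 CPM), Tcl1 (5.76 to 8.99 CPM), Gbx2 (6.75 to 9.58 CPM), Zfp42 (6.75 to 8.87 CPM) and Tet1 (6.44 to 8.83 CPM), all below or near the median member. At Tcl1 the MEF samples reached 1.05 to 3.18 CPM. In each of the 24 sites all mESC samples stood above all MEF samples, as at 97.2% of the members by the rule. With library as a replicate block, 1 of the 24 had a called difference between platforms, where 9.45% of the members did. It was the site near Nr5a2, higher on BGI (log2 difference 0.30, edgeR adjusted p = 1.51e-10). These sites were picked for a high level. Of the 2275 members in the quartile with the highest level, that fit called 324 higher and 52 lower on BGI.

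**Figure D5:**
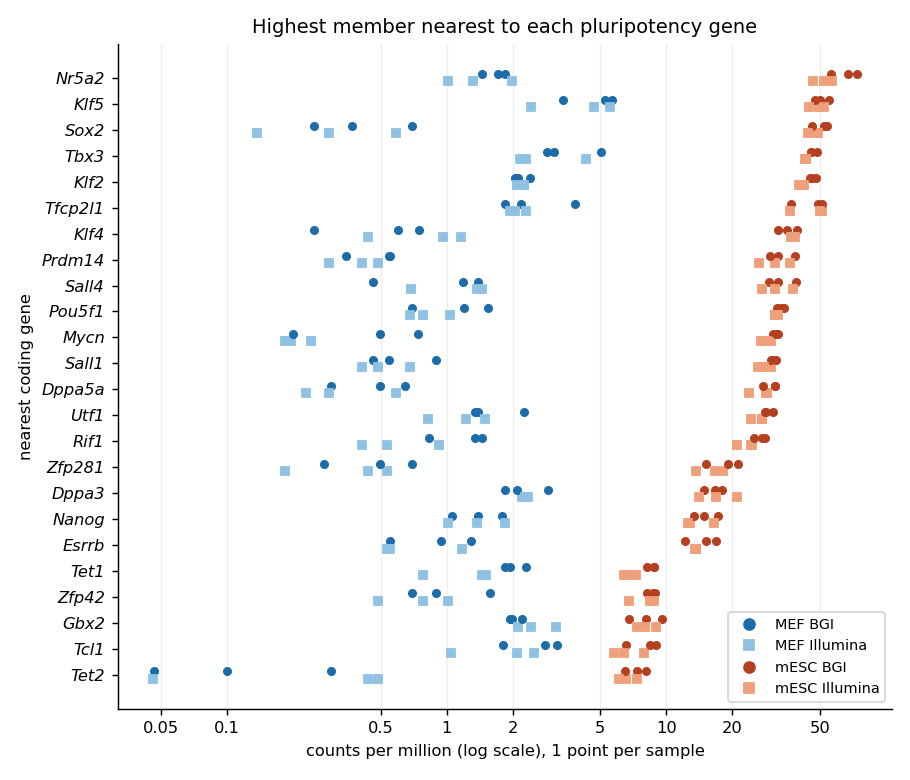
Each line is the highest member near 1 pluripotency gene, with a point for each of the 12 samples in CPM on a log axis, coloured by cell type and shaped by platform. The mESC points lie to the right of the MEF points in all 24 lines, from 6.09 to 8.08 CPM near Tet2 to 46.5 to 74.0 CPM near Nr5a2.

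The members with the highest levels lay mostly near genes of other kinds. The highest, 14,803 bp upstream of Idh2 (a mitochondrial isocitrate dehydrogenase), was at 81.8, 82.8 and 74.7 CPM in mESCs on BGI, 80.7, 74.5 and 70.6 CPM on Illumina and 1.60 to 2.93 CPM in MEFs. The site with the CTCF core near Dennd2a, printed above, was the next, at 79.5, 77.5 and 79.8 CPM on BGI and 65.6, 71.6 and 68.2 CPM on Illumina. The other 8 were nearest to Gm14412, Gpt2 (a mitochondrial alanine aminotransferase), Klf9, Nr5a2, Apoc1, Med13l (a Mediator subunit), Csnk1a1 (a casein kinase) and Dio3 (a thyroid hormone deiodinase), with means of 61.6 to 74.7 CPM in mESCs on BGI and 0.760 to 2.51 CPM in MEFs on BGI. Of the 10, those near Klf9 (80.5% masked) and Apoc1 (52.8%) were mostly repeat sequence.

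The platforms were compared in mESCs, a contrast that the rule did not use, although it started from the BGI peak set and kept sites found on both platforms. It was tested on the mESC peak set of both platforms, where 9115 peaks stood for the 9134 members. In edgeR without pairing, 8 were called higher on BGI and 8 lower (Benjamini-Hochberg adjusted p under 0.05 over 67,063 peaks), where 0.0418% and 3.19% of all peaks were called in these directions. The 8 called lower are 0.0878% of the members. The median log2 difference of BGI minus Illumina was 0.07 and was positive in 6304 of the 9115 peaks, and over all peaks the median was 0.01. Because the same libraries were read on both platforms, the fit with the library as a replicate block was made too. It called 672 higher and 189 lower on BGI, where 5.78% and 15.6% of all peaks were called. Calls among the members were thus mainly toward BGI, while those of all peaks were mainly toward Illumina. With the replicate block and a correction for GC content the numbers were 135 higher and 203 lower, where 4.16% and 4.48% of all peaks were called, so most of the calls toward BGI were lost and those toward Illumina were the majority. The median log2 difference of the members was then 0.0034, with 4660 of 9115 above 0, and the shift toward BGI was thus nearly gone. By quartile of GC content the median difference was 0.08 in each of the lower 3 and 0.02 in the highest (52.6 to 77.5% GC). DESeq2 called 31 higher and 10 lower with the block, where 0.201% and 5.1% of all peaks were called. Without a block, edgeR called 0 members once library 1 or library 5 was left out, with 234 and 100 members at an unadjusted p under 0.05, and 6 once library 3 was left out.

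The named sites include both repeat and GC-rich sequence. The member with the lowest p among those higher on BGI lay 15,257 bp upstream of Akap12, a kinase anchoring gene, at 27.2, 34.0 and 30.3 CPM in mESCs 1, 3 and 5 on BGI and 18.9, 17.7 and 18.3 CPM on Illumina. The BGI samples lay above the Illumina samples without overlap (log2 difference 0.67 ± 0.10 SE, edgeR adjusted p = 0.00638). A site 80,864 bp downstream of the TSS of Pmp22, a myelin protein gene, was at 44.9, 41.9 and 43.3 CPM on BGI and 33.8, 31.5 and 30.3 CPM on Illumina (0.40 ± 0.09 SE, edgeR adjusted p = 0.0288). In the other direction, the site 1154 bp upstream of Acsm3, 62.5% of it in repeats, was at 16.3, 9.58 and 11.7 CPM on BGI and 25.5, 18.1 and 22.8 CPM on Illumina (-0.84 ± 0.18 SE, edgeR adjusted p = 0.0217). The Foxo3 site described above was also lower on BGI in mESCs (-0.55 ± 0.12 SE, edgeR adjusted p = 0.0228), and so was a site 7711 bp downstream of Otx1, with 74.3% GC, at 9.84 to 11.9 CPM on BGI and 13.8 to 18.4 CPM on Illumina (edgeR adjusted p = 0.033). The last call was lost with the GC correction, at a log2 difference of -0.10 with the replicate block (edgeR adjusted p = 0.498). The other 4 stayed called in that fit, at 0.64 near Akap12, 0.35 near Pmp22, -0.91 near Acsm3 and -0.41 near Foxo3 (edgeR adjusted p = 1.77e-19, 3.06e-09, 1.06e-28 and 2.89e-06). Without a block, all 5 calls were lost with a GC offset, without library 1 and without library 5, and the Otx1 call also without library 3. The log2 differences with the offset alone were 0.64, 0.35, -0.91 and -0.41 near the first 4 genes and -0.10 near Otx1. Without library 1 and without library 5 they were 0.77 and 0.678 near Akap12 and 0.413 and 0.365 near Pmp22. Lower on BGI, they were -0.961 and -0.772 near Acsm3, -0.583 and -0.516 near Foxo3, and -0.575 and -0.598 near Otx1. The calls were thus lost with differences of similar size.

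Measured per sample, the members held a higher share of the reads on BGI in each library, and the exact tests that 3 libraries allow cannot pass 0.05. All measures here were taken in windows of the BGI peak set, so they do not treat the platforms alike. What part this has in them was not tested. The members' share of the reads of that set in mESCs 1, 3 and 5 was 10.57%, 10.47% and 10.67% on BGI and 9.937%, 9.757% and 9.851% on Illumina. Over the mESC peak set of both platforms the mean share was 10.85% on BGI and 10.06% on Illumina. The values that follow are again those of the BGI peak set. BGI was higher in 3 of 3 libraries, by 0.722 percentage points on average (exact permutation test, two-sided, p = 0.1 with an adjusted p of 0.133 over 4 measures, where 0.1 is the lowest value possible). Other sets moved the same way. In mESCs the intronic mESC-only sites took 10.2 to 10.66% on BGI and 9.425 to 9.901% on Illumina, and the intergenic sites open in both cell types took 6.405 to 6.762% and 6.055 to 6.422%, each with BGI higher in 3 of 3 libraries. The median -log10 p of the summits at members was 40.65 on BGI and 36.32 on Illumina, with BGI higher in 3 of 3 libraries (exact permutation p = 0.1). Called intervals at members had a median width of 809.2 bp on BGI and 858.3 bp on Illumina, with BGI narrower in 3 of 3 libraries (exact permutation p = 0.2). Called summits per member were 1.052 and 1.067, with BGI lower in 3 of 3 libraries (exact permutation p = 0.1). The sign-flip permutation over paired libraries gave p = 0.25, its smallest, for each. In MEFs the members took 1.372 to 1.460% of the reads on BGI and 1.247 to 1.343% on Illumina.

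The 3 mESC libraries, each read on both platforms, were compared with one another. The runs of a library on the 2 platforms stand for its replicates here, so that the error is that of sequencing the same library again and the p-values say nothing of the spread between mESC cultures. With platform in the model, edgeR called 4078 of the 9115 (44.7%), where 43.4% of all peaks were called, and DESeq2 called 310 (3.4%), where 3.38% of all peaks were called. By either tool the members were called about as often as other peaks, while the number called depended on the tool. In edgeR it was 2255, 1445 and 3292 without library 1, 3 and 5 (24.7%, 15.9% and 36.1% of the members), where 25.9%, 12.9% and 35.9% of all peaks were called. The differences were small in size. The mean of the highest library was a median of 1.23-fold that of the lowest, and 1010 members (11.1%) differed by over 1.5-fold and 60 by over 2-fold. The test compares these 3 libraries and no condition.

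The members with the lowest p of this test are next to genes of several kinds. Near Mt2 and Mt1, neighbouring metallothionein genes that respond to metals and stress, library 1 was highest. The Mt2 site was at 57.1, 32.5 and 38.3 CPM in mESCs 1, 3 and 5 on BGI and 55.1, 29.5 and 36.8 CPM on Illumina, and both platforms gave the same order (edgeR adjusted p = 3.9e-34). The Mt1 site was at 30.7, 13.3 and 23.4 CPM on BGI and 32.8, 15.2 and 20.2 CPM on Illumina (edgeR adjusted p = 2.2e-31). In the other 3 sites library 3 was highest. The site 86,199 bp upstream of Spred2, an inhibitor of the ERK pathway, was at 21.8, 30.7 and 13.3 CPM on BGI and 21.3, 28.6 and 11.7 CPM on Illumina (edgeR adjusted p = 1.73e-34), and 90.8% of it was repeat sequence. The site upstream of Hmga2, an architectural chromatin protein gene, was at 12.1, 22.6 and 10.9 CPM on BGI and 10.6, 18.9 and 9.29 CPM on Illumina (edgeR adjusted p = 1.1e-22). The site near Rhbg, an ammonium transporter gene, was at 48.2, 65.8 and 45.3 CPM on BGI and 45.3, 60.9 and 40.5 CPM on Illumina (edgeR adjusted p = 8.11e-23). Without library 3 the calls near Hmga2 and Rhbg were lost (edgeR adjusted p = 0.351 and 0.14). Of the 24 pluripotency sites, 13 (54.2%) had a called library difference in edgeR, where 44.7% of all members did, and 4 (16.7%) in DESeq2, where 3.4% of all members did. These sites were picked for a high level, and calls rose with level. In the quartile of members with the highest level, 54.4% were called in edgeR and 6.2% in DESeq2. The edgeR count over the 24 sites was 11, 6 and 7 without library 1, 3 and 5 (45.8%, 25% and 29.2%), where 24.7%, 15.9% and 36.1% of the members were called. The lowest p of them was near Tfcp2l1, at 49.3, 51.3 and 36.8 CPM on BGI and 51.1, 50.1 and 36.7 CPM on Illumina (edgeR adjusted p = 9.29e-15). That call rests on library 5 and was lost without it (log2 range 0.024 in place of 0.49, edgeR adjusted p = 0.752). The next were near Prdm14, Sall4 and Nr5a2 (edgeR adjusted p = 1.33e-08, 1.78e-08 and 1.84e-08), of which the first pair was lost without library 3 (edgeR adjusted p = 0.0706 and 0.155). The site near Nr5a2 stayed called without each library in turn and in DESeq2. Its log2 range was 0.351 with all libraries and 0.181, 0.186 and 0.351 without library 1, 3 and 5. The site near Pou5f1 was not called (edgeR adjusted p = 0.858).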

How the data were processed

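Omni-ATAC-seq data of 6 libraries read on both platforms (12 samples) were used. The authors trimmed reads, aligned them to GRCm38 (mm10) with Bowtie2, discarded duplicate and mitochondrial reads, and reduced every sample to 60 M reads (MEF) or 45 M reads (mESC). They called peaks per sample with MACS2. The deposited calls give each summit's fold enrichment over the genome-wide background as a ratio, which was not printed here, and its -log10 p and -log10 q. The deposited peak lists give positions of 502 bp peaks found in at least 2 samples of a group, and the deposited tables give raw read counts per peak, with no normalization. Groups were taken from the sample titles. The count columns of BGI samples carry the platform in their name, and the columns of the same libraries without it were taken as the Illumina samples, since the peak calls of those samples bear the same unmarked names.

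Counts were tested here in edgeR 4.0.16 (R 4.3.3) by its quasi-likelihood test, two-sided, with TMM normalization and the default low-count filter, over all peaks of a table, with Benjamini-Hochberg adjustment at 0.05. DESeq2 1.42.0 was an alternative. The members and lists were chosen with earlier results of these data known. Named members were the 10 highest in mESCs on BGI, the highest near each pluripotency gene, the 5 lowest p in each direction of the platform test, the 5 lowest p of the library test and those at the distance limits. Members were mapped to the mESC peak set by at least 50% of the width. Library numbers pair the samples because the same DNA was read on both platforms; over all peaks, deviations from the group mean correlated at 0.426 to 0.618 between mESC samples of the same number, and negatively between different numbers. No 2 samples held identical counts. On simulated data the platform fit recovered 92.5% of 2-fold and 11.9% of 1.5-fold changes, and the library fit recovered 79.1% and 16.4%. These shares are no limit of detection for the data themselves. Without a block, the platform fit called the site near Pmp22 at a log2 difference of 0.395. The library fit called 4078 members, while 1010 members differed by over 1.5-fold. Small differences can still have been missed. Motifs and repeats were read from the soft-masked reference sequence with Python 3.11.15.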

Additional observations from a re-analysis of the deposited data

Results flagged for a closer look

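Called summits per member differed between platforms in opposite directions in the cell types. BGI minus Illumina had a mean of -0.015 in mESCs, where it was below 0 in 3 of 3 libraries, and a mean of 0.0335 in MEFs, where it was above 0 in 3 of 3. The difference between the cell types was not tested. In mESCs nearly every member held a summit, so that the value counts second summits within a site, while in MEFs, at 0.3256 on BGI and 0.2921 on Illumina, it counts sites that held any.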

How the results depend on the processing

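In the platform test, members called higher on BGI fell from 672 with the replicate block to 135 with the replicate block and a GC offset, while those called lower were 189 and 203. Small uncalled differences could change sign there, as near Pou5f1 (0.016 without the block, -0.049 with both). Among values of single members and motifs, 122 kept their side of the threshold or stayed within the error, 38 lost their call and 11 moved, all of these 11 downward in a central window of the peak. The counts of members called higher in mESCs follow from the rule, and nothing is read from their range. The platform test, with 16 members called, depended on the fit. It called 861 with the replicate block, 338 with the replicate block and a GC offset, 41 with the replicate block in DESeq2 (chosen after seeing the data), 0 with a GC offset alone (204 at an unadjusted p under 0.05 in edgeR), 10 on the BGI peak set and 0 to 6 when each library was left out. The library test called 4078, against 310 in DESeq2 and 1445 to 3292 when each library was left out. For both, the cause of the gap between the tools was not tested. The OCT4-SOX2 share of 2.49% was 1.80% in a central window of the peak, 0.208% with at most 1 mismatch and 13.5% with at most 3, and that of the intergenic MEF-only sites, 0.496%, was 0.144%, 0.0131% and 5.69%, so the ratio of the 2 sets depends on these choices while its direction does not. The number of members, 9134, was 9306 with distances from the peak centre, 9173 with an overlap of at least 50% and 9605 with coding genes only, of which 9134, 9045 and 7842 were shared. Fold differences of members with few MEF reads depend on the prior count, and 3 libraries for each cell type limit all tests.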
